A study of Homo sapiens with 4 samples.

Results

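Transcripts of heat shock chaperones and their J-domain partners were examined in HepG2 cells exposed to Sorafenib. The genes were chosen by symbol alone: every HSPA, HSPB, HSPD, HSPE, HSPH, cytosolic HSP90 and numbered DNAJA, DNAJB or DNAJC symbol, without the endoplasmic reticulum (ER) chaperones *HSPA5*, *HSP90B1* and *DNAJB9*. This gave 69 of the 28278 genes in the count table. The symbol rule did not hold to the cytosol and mitochondria, since it also took in 11 J proteins of the ER or other membranes and *HSPA13*, which are described apart. HepG2 is a human liver cancer line, and Sorafenib is a multikinase inhibitor given for liver cancer. The control cells carried a Cas9 lentivirus with a control guide RNA, and the sgUSP22 cells carried the same kind of virus with a guide against *USP22*, a deubiquitinase gene. Both were stable infected cell populations, both received Sorafenib for 24 h, and 2 polyA RNA libraries were made from each. Cells without Sorafenib were not analysed here, so each difference below is between 2 drug-treated populations, and what infection or Sorafenib itself did to chaperone transcripts cannot be read from these libraries.

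HSP70 proteins hold and fold other proteins in cycles of ATP hydrolysis. J proteins (DNAJ) bring clients and start hydrolysis, HSP110 and BAG proteins drive nucleotide exchange, HSP90 finishes the folding of many kinases and receptors, and small heat shock proteins hold unfolded chains until HSP70 can take them. A part of this set, *HSPA1A*, *HSPA1B* and *HSPA6* foremost, is kept low in unstressed cells and is switched on by heat shock factor *HSF1*, which binds heat shock elements made of repeated GAA and TTC units. Other members, such as *HSPA8* and the mitochondrial *HSPA9*, *HSPD1* and *HSPE1*, serve folding and protein import in all cells.

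The libraries held between 62030307 and 64728272 counts, and a count of 0 allowed up to 3 counts, which is 0.0463 to 0.0484 CPM (counts after scaling to a common library size) and covers counting error only. *USP22*, the targeted gene, had 16450 and 16537 counts in control replicates 1 and 2, and 20279 and 20368 counts in sgUSP22 replicates 1 and 2. Its level was therefore not lower but 16.7% higher in the libraries labelled sgUSP22 (log2 fold change 0.22, standard error 0.034, edgeR adjusted p = 0.000394). The paper reports a Western blot check of the knockout, which measures protein and not RNA. All directions below follow the label. Of 20 hepatocyte marker genes, 11 were listed at 0 in all 4 libraries, *ALB*, *APOA1*, *APOB* and *TTR* among them, and the 20 together summed to 5.88 to 6.81 CPM in control and 7.44 to 8.68 CPM in sgUSP22 libraries. All 8 mesenchymal markers were detected and summed to 1708 to 1724 CPM in control and 1708 to 1730 CPM in sgUSP22 libraries. *VIM* was the highest of them, at a mean of 1073 CPM in control and 818.1 CPM in sgUSP22 libraries. Near-equal sums thus do not mean that each marker was alike in the groups. Of 5 blood markers, 3 were listed at 0. The labelled identity as a liver line was thus not borne out by these markers, and their part in the differences below was not tested. Fewer cells of a type and less RNA per cell cannot be told apart in such bulk samples. Nothing in the labels says that replicates came from separate cultures, so p-values measure only the spread between these libraries.

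The 15150 genes with enough counts were tested in edgeR with its quasi-likelihood method and a Benjamini-Hochberg adjustment over all of them, and a gene was called at an adjusted p below 0.05 with a fold change of at least 1.5. The largest differences among the chaperones lay in 5 transcripts of the inducible HSP70 system. *HSPA1A*, *HSPA1B*, *HSPA6*, *HSPA7* and the J protein gene *DNAJB1* were all lower in the libraries labelled sgUSP22, from 3.15-fold for *DNAJB1* to 31.6-fold for *HSPA6*, while the constitutive *HSPA8* differed by less than its error. Of the 69 genes, 63 had enough counts to be tested. Among them 4 (6.35%) were called higher, against 8.88% of all tested genes, and 9 (14.3%) were called lower, against 7.25% of all tested genes. At an adjusted p below 0.05 with no fold threshold, 19 were higher and 19 lower, or 60.3% of the 63 together, against 26.8% of all tested genes higher and 25.8% lower, or 52.5% together. The 2 groups of libraries did not overlap for 49 of the 63 genes, against 75.9% of all tested genes. The median log2 fold change of the 63 genes was -0.01, against 0.0009 for all tested genes, and the values ran from -4.98 for *HSPA6* to 1.13 for *DNAJC12*. By size, the falls of *HSPA1A*, *HSPA1B*, *HSPA6*, *HSPA7* and *DNAJB1* stood apart, since the log2 fold changes of the other tested members lay between -1.02 (*HSPB6*, not called) and 1.13.

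**Figure D1:**
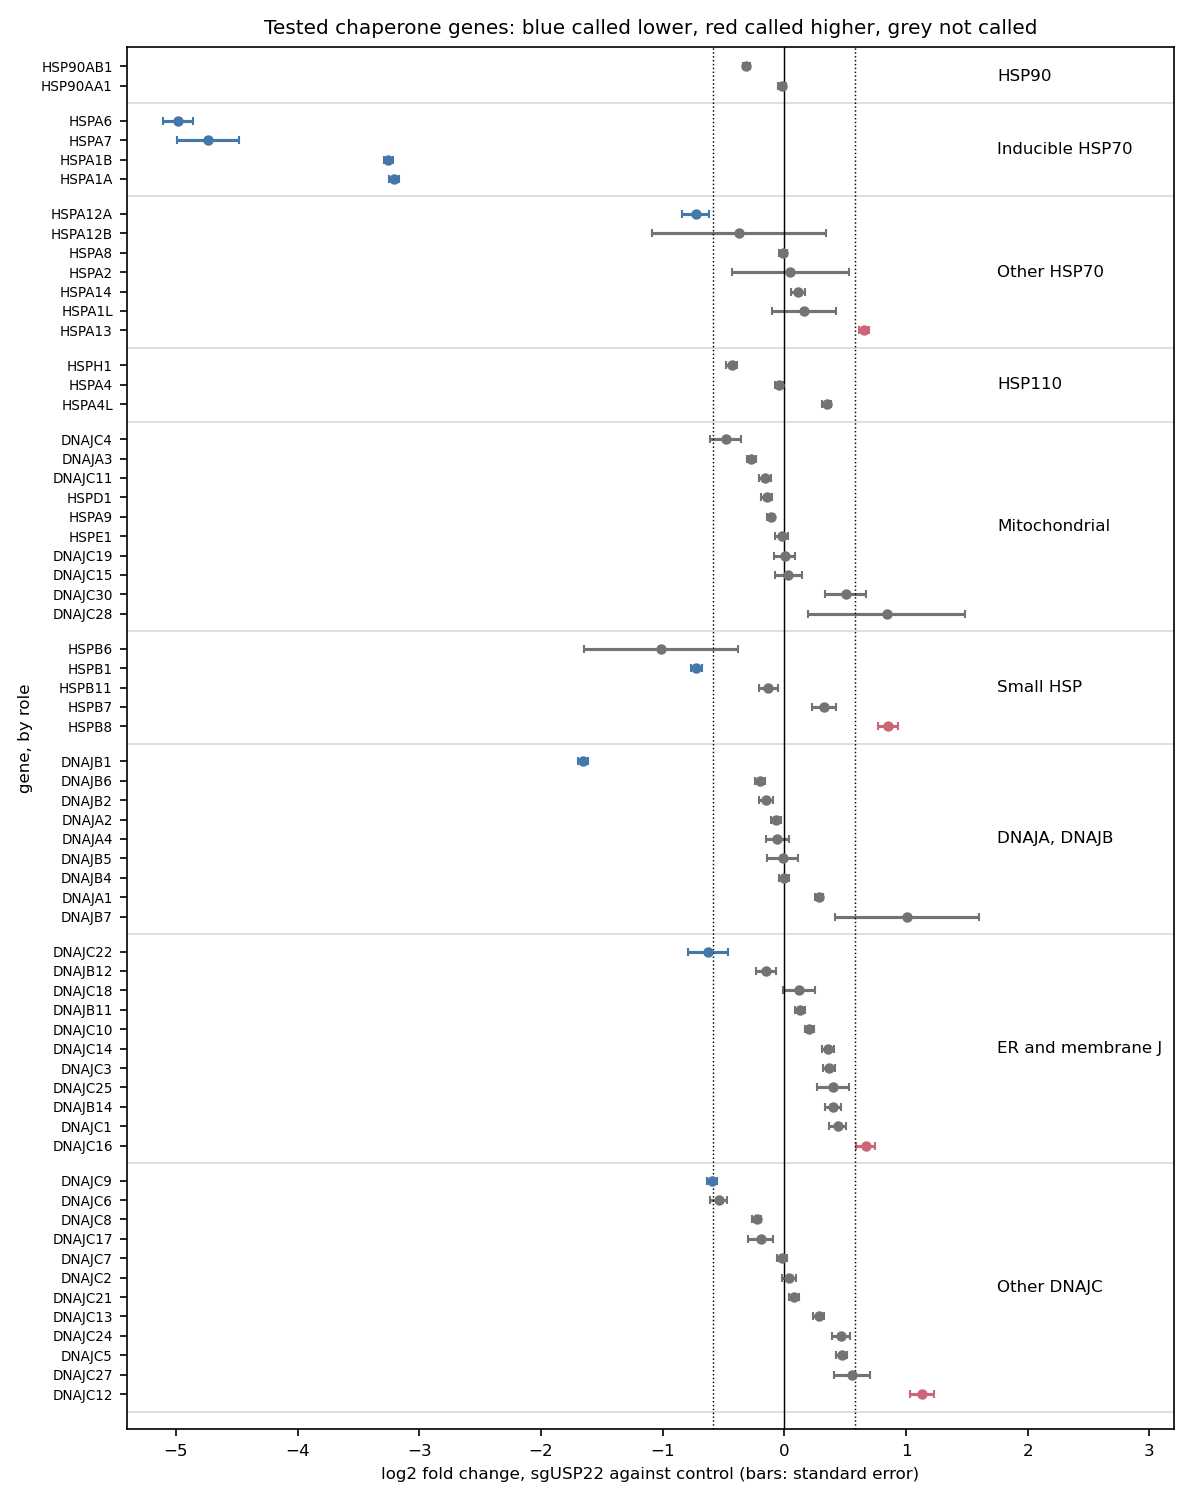
Log2 fold change (horizontal axis, sgUSP22 against control) of the 63 tested chaperone genes (vertical axis, by role), with bars for the standard error and dotted lines at 1.5-fold. Points in blue were called lower, points in red called higher and grey points were not called; the 4 inducible HSP70 genes and *DNAJB1* stand to the left of all others.

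The 6 genes that could not be tested were at or near 0. *DNAJB3*, *DNAJB8* and *HSPB3* were listed at 0 in all 4 libraries. *HSPB2* had 4 counts in control replicate 1 and 0 in the other libraries, *HSPB9* had 2 counts in control replicate 1 and 0 in the others, and *DNAJB13* had 0 in both control libraries and 4 and 2 counts in the sgUSP22 libraries. No fold was computed for these, since both groups lay at or near the floor of 3 counts.

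The promoters of 6 genes are shown because heat shock elements, the sites of *HSF1*, are the known control points of these genes and the transcripts behaved differently here. The first 4 belong to HSP70 and J protein transcripts that were much lower in sgUSP22 libraries. The last 2 belong to *HSPA8*, also an HSP70, and *HSP90AA1*, an HSP90, which were not. Each is the RefSeq promoter window of 300 bases, from 250 bases before to 50 bases after a transcript start, on build GRCh38.p14 and read along the gene's own strand. Capitals mark every match to GAANNTTC or TTCNNGAA, the joined pair of units in either order, where N is any base. The windows are chr6:31815293-31815592 (plus strand) for *HSPA1A*, chr6:31827488-31827787 (plus) for *HSPA1B*, chr1:161524290-161524589 (plus) for *HSPA6*, chr19:14518348-14518647 (minus) for *DNAJB1*, chr11:123062087-123062386 (minus) for *HSPA8* and chr14:102086995-102087294 (minus) for *HSP90AA1*. For *DNAJB1* and *HSP90AA1* the table held 3 and 2 windows, of which 1 each is shown, picked for having the most matches.
HSPA1A: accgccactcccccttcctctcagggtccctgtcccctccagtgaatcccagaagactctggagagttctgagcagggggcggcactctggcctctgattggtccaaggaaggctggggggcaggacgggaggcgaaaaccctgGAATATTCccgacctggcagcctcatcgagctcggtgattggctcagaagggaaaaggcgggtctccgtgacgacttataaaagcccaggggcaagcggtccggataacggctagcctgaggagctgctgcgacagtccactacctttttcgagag
HSPA1B: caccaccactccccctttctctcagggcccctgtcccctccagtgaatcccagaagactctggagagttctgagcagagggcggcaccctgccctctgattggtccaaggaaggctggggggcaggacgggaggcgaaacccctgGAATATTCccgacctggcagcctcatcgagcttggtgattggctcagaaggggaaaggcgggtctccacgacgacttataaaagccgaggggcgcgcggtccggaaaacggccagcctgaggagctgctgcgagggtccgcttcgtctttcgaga
HSPA6: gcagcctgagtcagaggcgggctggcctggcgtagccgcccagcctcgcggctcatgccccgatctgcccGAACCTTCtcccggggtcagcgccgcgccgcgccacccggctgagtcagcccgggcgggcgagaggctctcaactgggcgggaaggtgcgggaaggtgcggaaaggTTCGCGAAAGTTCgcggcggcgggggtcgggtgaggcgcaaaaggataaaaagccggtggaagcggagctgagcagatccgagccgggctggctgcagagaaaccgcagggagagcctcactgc
DNAJB1: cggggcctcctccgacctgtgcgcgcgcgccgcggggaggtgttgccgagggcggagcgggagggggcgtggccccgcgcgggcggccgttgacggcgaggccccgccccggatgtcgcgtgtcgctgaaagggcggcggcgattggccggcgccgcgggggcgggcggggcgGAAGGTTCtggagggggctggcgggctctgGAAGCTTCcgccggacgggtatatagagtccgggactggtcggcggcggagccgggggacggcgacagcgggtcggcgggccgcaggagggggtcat
HSPA8: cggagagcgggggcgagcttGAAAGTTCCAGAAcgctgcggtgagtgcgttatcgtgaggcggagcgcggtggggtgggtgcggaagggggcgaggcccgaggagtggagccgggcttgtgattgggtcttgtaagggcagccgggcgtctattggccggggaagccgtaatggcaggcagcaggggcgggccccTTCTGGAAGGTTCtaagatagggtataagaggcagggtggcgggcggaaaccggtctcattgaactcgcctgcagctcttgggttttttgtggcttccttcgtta
HSP90AA1: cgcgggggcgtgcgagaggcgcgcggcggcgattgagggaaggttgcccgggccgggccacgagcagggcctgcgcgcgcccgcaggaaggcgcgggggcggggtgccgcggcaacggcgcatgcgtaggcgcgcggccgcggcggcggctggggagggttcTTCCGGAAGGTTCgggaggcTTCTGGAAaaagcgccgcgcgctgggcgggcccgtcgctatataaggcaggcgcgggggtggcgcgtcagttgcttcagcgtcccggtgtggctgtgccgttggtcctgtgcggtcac

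In the *HSPA1A* window a single joined pair began 106 bases before the start, and in *HSPA1B* the same 8 letters began 105 bases before it. An alignment of these 2 windows had 277 identical positions, 22 mismatches and 2 gaps. The *DNAJB1* window had separate pairs 77 and 47 bases before the start. The *HSPA6* window had a pair 180 bases before the start and a run of 3 units, in which 2 pairs overlap, 74 bases before it. *HSPA8* had such runs of 3 units at 230 and 55 bases before the start, and *HSP90AA1* had 1 at 88 bases. So the longer run of 3 units stood in *HSPA6*, which was 31.6-fold lower, and equally in *HSPA8* and *HSP90AA1*, which were not called.

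Over the whole set, 60 of the 69 genes were matched to at least 1 RefSeq window. A run of 3 units (GAA, TTC and GAA, or TTC, GAA and TTC, each parted by any 2 bases) was found in 7 genes or 11.7%, against 0.608% of all 27305 genes with a window and 0.493% of the tested genes. The 7 were *HSPA6*, *HSPA8*, *HSP90AA1*, *HSP90AB1*, *HSPD1*, *DNAJB6* and *DNAJA1*. A joined pair, which every run of 3 units also holds, was found in 22 genes or 36.7%, against 16.2% of all genes with a window. Among the tested genes with a run of 3 units, 1 of 7 was called lower and 0 higher. Of the 14 with a pair only, 4 were called lower (*HSPA1A*, *HSPA1B*, *DNAJB1* and *HSPB1*) and 1 higher (*HSPB8*). Of the 35 with a window and neither, 2 were called lower and 3 higher. Of all tested genes, 7.25% were called lower and 8.88% higher. The classes are small, and the *HSPA1A* and *HSPA1B* windows are near copies, so these counts give no result about promoters. *HSPA7* and *DNAJC22*, both called lower, were among the 7 tested genes with no window in the table. Such matches describe letters in the windows and say nothing of which factor was bound in these cells.

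The inducible HSP70 genes encode the chaperones that heat and proteotoxic stress raise in the cytosol and nucleus. *HSPA1A* (chromosome 6, 31815543 to 31817946, hg38) had 71742 and 70403 counts in control replicates 1 and 2 and 8333 and 7913 counts in sgUSP22 replicates 1 and 2. *HSPA1B*, its neighbour on the same strand (31827738 to 31830254), had 63674 and 63262 counts in control and 7133 and 6915 counts in sgUSP22 libraries. In both genes every sgUSP22 library was far below every control library, and replicates lay close together. The level of *HSPA1A* fell from 1153 ± 34.0 CPM (SD, n = 2) to 124.7 ± 2.99 CPM (SD, n = 2), 9.24-fold lower, a log2 fold change of -3.21 (standard error 0.038, edgeR adjusted p = 2.53e-11). *HSPA1B* fell from 1029 ± 21.4 to 107.8 ± 1.01 CPM (SD, n = 2 each), 9.54-fold lower, a log2 fold change of -3.25 (standard error 0.035, edgeR adjusted p = 2.37e-11). By p-value they ranked 1 (*HSPA1B*) and 2 (*HSPA1A*) of the 15150 genes tested.

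These 2 genes encode nearly the same protein. Of the distinct stretches of 100 bases in the *HSPA1A* transcript, 72.4% also occur in *HSPA1B*, so the division of reads between them is uncertain. Their sum does not depend on that division, although how reads matching both genes were counted is not given in the sources used here. *HSPA1A* and *HSPA1B* together had 135416 and 133665 counts in control and 15466 and 14828 counts in sgUSP22 libraries. As a share of all counts they made up 0.218% and 0.210% of the control libraries and 0.0239% and 0.0235% of the sgUSP22 libraries, and the summed level was 9.38-fold lower. *HSPA1L*, a testis-enriched gene beside them on chromosome 6 that shared no stretch of 100 bases with *HSPA1A*, had 72 and 88 counts in control and 100 and 89 counts in sgUSP22 libraries (log2 fold change 0.16, 95% interval -0.43 to 0.75, edgeR adjusted p = 0.64).

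*HSPA6*, a strictly stress-induced HSP70 of human cells, had 3332 and 3468 counts in control and 133 and 94 counts in sgUSP22 libraries. Its log2 fold change of -4.98 (standard error 0.12, edgeR adjusted p = 3.12e-09) was the lowest of the 63 genes, and its level went from 55.1 ± 0.668 to 1.74 ± 0.402 CPM (SD, n = 2 each). *HSPA7*, a close relative often listed as a pseudogene, had 272 and 290 counts in control and 10 and 12 counts in sgUSP22 libraries (log2 fold change -4.74, standard error 0.26, edgeR adjusted p = 5.68e-07). Both genes lie on chromosome 1. They share 27.8% of the distinct stretches of 100 bases in *HSPA6* and 34.4% of those in *HSPA7*, so here too the split of reads is uncertain. Their sum was 59.7 ± 0.800 CPM in control and 1.91 ± 0.378 CPM in sgUSP22 libraries (SD, n = 2 each), 31.3-fold lower.

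**Figure D2:**
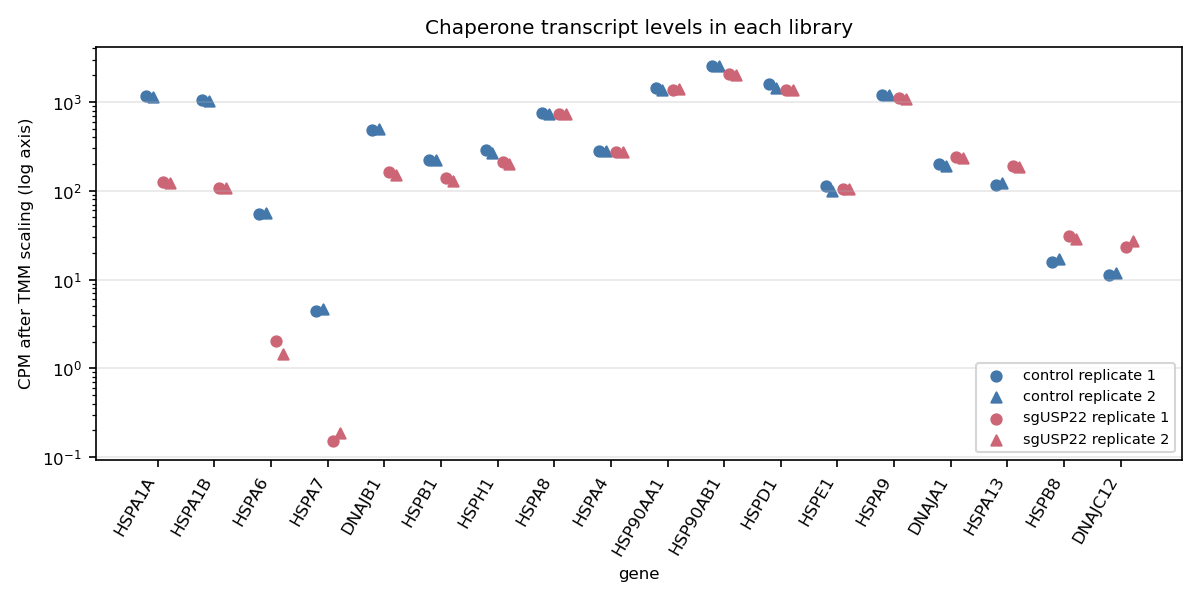
Level of 18 chaperone genes in each library, in CPM after TMM scaling on a log axis (vertical), by gene (horizontal). Circles are replicate 1 and triangles replicate 2, blue for control and red for sgUSP22. The gaps between colours are widest for *HSPA6*, *HSPA7*, *HSPA1B* and *HSPA1A*. *HSPA8*, *HSPA4* and *HSP90AA1* lie at nearly the same height in both colours, although the *HSPA4* groups do not overlap.

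The constitutive *HSPA8* (HSC70), the housekeeping HSP70 of the cytosol, had 45997 and 45387 counts in control and 48558 and 47176 counts in sgUSP22 libraries. After scaling for library size its levels overlapped between the groups, at 754.4 and 727.5 CPM in control and 739.0 and 730.8 CPM in sgUSP22 libraries. The log2 fold change was -0.01 (95% interval -0.08 to 0.06, edgeR adjusted p = 0.785), so a difference beyond that interval was not seen. As the inducible genes fell and *HSPA8* did not, the make-up of the cytosolic HSP70 pool differed. Per kilobase of transcript, which makes genes comparable, *HSPA8*, *HSPA1A*, *HSPA1B*, *HSPA6*, *HSPA2* and *HSPA1L* summed to 1262 and 1219 CPM per kb in control and 424.1 and 417.7 CPM per kb in sgUSP22 libraries, a sum 2.95-fold lower. *HSPA1A* and *HSPA1B* made up 71.7% and 71.6% of it in control and 22.6% and 22.4% in sgUSP22 libraries. The share of *HSPA8* was 26.4% in both control libraries and 77.0% and 77.3% in the sgUSP22 libraries. Replicates of a group thus had nearly the same make-up, and the groups were far apart.

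**Figure D3:**
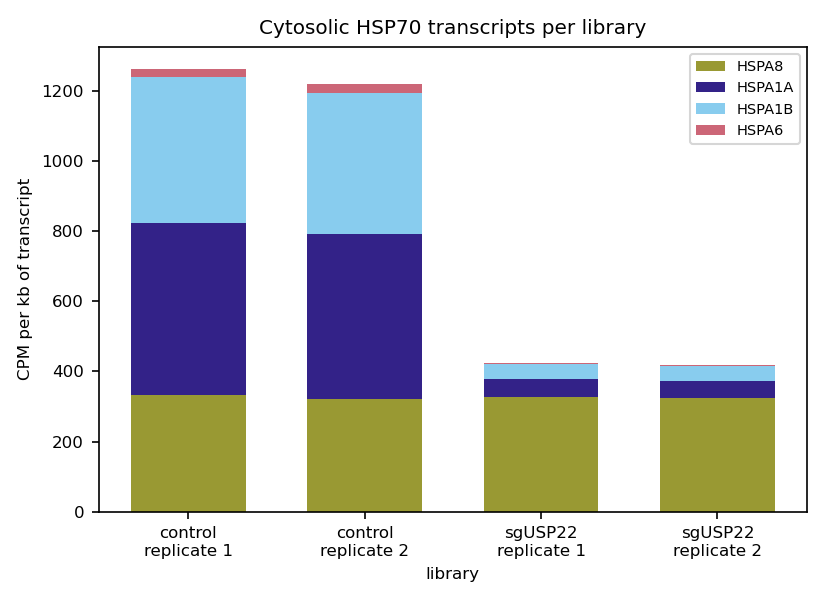
Summed level of cytosolic HSP70 transcripts in each library (vertical axis, CPM per kb of transcript, from 0; horizontal axis, library), stacked by gene. The *HSPA8* part is of much the same height in all 4 libraries, while the *HSPA1A* and *HSPA1B* parts are tall in the control and short in the sgUSP22 libraries.

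Of the 5 other HSP70-like genes, *HSPA12A* and *HSPA13* were called, in opposite directions. *HSPA12A*, a divergent member of the family, had 1359 and 1547 counts in control and 841 and 1009 counts in sgUSP22 libraries (log2 fold change -0.73, standard error 0.11, edgeR adjusted p = 0.000349). *HSPA13*, a microsomal HSP70 without the usual peptide-binding domain, had 7026 and 7676 counts in control and 12459 and 12008 counts in sgUSP22 libraries (log2 fold change 0.66, standard error 0.042, edgeR adjusted p = 1.46e-06). The increase of *HSPA13* lost its call, at a log2 fold change of 0.39, when trends with GC content and transcript length were removed. *HSPA14*, which pairs with *DNAJC2* at the ribosome, was not past the threshold (log2 fold change 0.11, 95% interval -0.02 to 0.24, edgeR adjusted p = 0.144). *HSPA2* and *HSPA12B* were low, with at most 54 and 21 counts in any library.

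The HSP110 genes encode nucleotide exchange factors of HSP70 that also keep unfolded chains soluble, and the 3 of them did not move alike. *HSPH1* (HSP105), itself inducible by heat, had 17542 and 16616 counts in control and 13923 and 12829 counts in sgUSP22 libraries, a level at 74.1% of control (log2 fold change -0.43, standard error 0.047, edgeR adjusted p = 4.25e-05). Removing the trends with GC content and length took it past 1.5-fold, at -0.65. *HSPA4L* rose by 0.35 on the log2 scale (edgeR adjusted p = 3.51e-05), but by that same correction its log2 fold change was -0.006. *HSPA4*, the most abundant of the 3 per kilobase, had 281.1 and 279.1 CPM in control and 272.1 and 272.5 CPM in sgUSP22 libraries (log2 fold change -0.04, 95% interval -0.12 to 0.03, edgeR adjusted p = 0.332). With the same trends removed it was -0.17 and past the adjusted p of edgeR (0.00110).

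*HSP90AB1*, the constitutive cytosolic HSP90, was the highest of the 62 members with a known transcript length in both groups, at 993.1 CPM per kb in control and 800.0 CPM per kb in sgUSP22 libraries. It had 153737 and 159296 counts in control and 136202 and 130076 counts in sgUSP22 libraries, and the groups did not overlap. The level in sgUSP22 libraries was 80.5% of control (log2 fold change -0.31, standard error 0.027, edgeR adjusted p = 9.30e-06), which was past the adjusted p but under the fold threshold. *HSP90AA1*, the more heat-inducible of the pair, had 88025 and 85092 counts in control and 90530 and 89607 counts in sgUSP22 libraries. Its scaled levels overlapped, and its log2 fold change was -0.02 (95% interval -0.10 to 0.05, edgeR adjusted p = 0.617), but -0.13 and past the adjusted p of edgeR (0.00285) once GC and length trends were removed. The pair summed to 3941 ± 33.6 CPM in control and 3427 ± 33.4 CPM in sgUSP22 libraries (SD, n = 2 each), or 1.15-fold lower.

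Of 10 mitochondrial chaperones and J proteins none was called. At an adjusted p below 0.05 alone, 5 were lower and 1 was higher, against 25.8% and 26.8% of all tested genes, and 3 were lower and 1 higher once GC and length trends were removed. *HSPA9* (mortalin), the HSP70 of the matrix, had 72105 and 74175 counts in control and 72698 and 70188 counts in sgUSP22 libraries (log2 fold change -0.11, edgeR adjusted p = 0.00743). *HSPD1* (HSP60), which forms the folding chamber of the matrix, had 97839 and 90046 counts in control and 90600 and 88922 counts in sgUSP22 libraries (log2 fold change -0.15, 95% interval -0.24 to -0.05, edgeR adjusted p = 0.0187). Control replicate 1 stood above the other 3 libraries in *HSPD1*, and without it the log2 fold change was -0.07 and the adjusted p from edgeR 0.103. *HSPE1* (HSP10), the lid of that chamber, had 6836 and 6252 counts in control and 6881 and 6758 counts in sgUSP22 libraries (log2 fold change -0.02, 95% interval -0.14 to 0.10, edgeR adjusted p = 0.782). The read-through gene *HSPE1-MOB4*, which overlaps *HSPE1*, was listed with 790 counts in control replicate 2 and with 0 in the other 3 libraries, so counting at this place was uneven and its part in the *HSPE1* value was not tested. *DNAJA3*, the J protein that works with *HSPA9*, was lower, with 11701 and 12244 counts in control and 10611 and 10321 counts in sgUSP22 libraries (log2 fold change -0.27, standard error 0.036, edgeR adjusted p = 0.000147). The import motor J proteins *DNAJC19* and *DNAJC15* had log2 fold changes of 0.003 (95% interval -0.19 to 0.20) and 0.03 (95% interval -0.22 to 0.28).

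Small heat shock proteins were mostly low, and *HSPB1* was by far the most abundant per kilobase. *HSPB1* (HSP27), inducible by heat and a holder of unfolded proteins, had 13536 and 13814 counts in control and 9169 and 8337 counts in sgUSP22 libraries (log2 fold change -0.72, standard error 0.043, edgeR adjusted p = 9.41e-07). The transcript is rich in GC, at 65.2%, and once GC and length trends were removed its log2 fold change was -0.45, no longer past 1.5-fold. *HSPB8*, which works with *BAG3* in sending misfolded proteins to autophagy, moved the other way, with 973 and 1061 counts in control and 2028 and 1852 counts in sgUSP22 libraries (log2 fold change 0.85, standard error 0.081, edgeR adjusted p = 1.68e-05). *HSPB7*, a small heat shock protein best known from muscle, rose by 0.32 on the log2 scale (edgeR adjusted p = 0.0199), under the fold threshold. This rise missed the adjusted p under DESeq2 (adjusted p = 0.0593), and was 0.48 once GC and length trends were removed. *HSPB11* and *HSPB6* were not past the threshold, and *HSPB6* had at most 39 counts in any library.

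Among the DNAJA and DNAJB genes of the cytosol and nucleus, which supply HSP70 with clients, *DNAJB1* stood alone. *DNAJB1* (HSP40), the J protein partner of inducible HSP70, had 29586 and 30642 counts in control and 10554 and 9634 counts in sgUSP22 libraries. Its level went from 488.2 ± 4.21 to 154.9 ± 8.04 CPM (SD, n = 2 each), 3.15-fold lower, a log2 fold change of -1.66 (standard error 0.042, edgeR adjusted p = 3.89e-09). *TECR* overlaps *DNAJB1* on the other strand and its level in sgUSP22 libraries was 81.3% of control. The strand setting of the counting is not given in the sources used here, and the part of *TECR* reads in the *DNAJB1* value was not tested. *DNAJA1*, a farnesylated HSP40 that is also heat-inducible, went the opposite way, with 12097 and 11993 counts in control and 15836 and 15169 counts in sgUSP22 libraries (log2 fold change 0.29, standard error 0.037, edgeR adjusted p = 0.000121). *DNAJB6*, which keeps polyglutamine proteins from aggregating, was slightly lower (log2 fold change -0.20, edgeR adjusted p = 0.00316). The other 6 tested genes of this group were not past the adjusted p, and the best measured of them, *DNAJA2* and *DNAJB4*, had 95% intervals of -0.16 to 0.03 and -0.10 to 0.10 on the log2 scale. With GC and length trends removed, however, *DNAJA2* was at -0.21 and *DNAJB4* at -0.28, past the adjusted p of edgeR (0.00189 and 0.000344). The group then had 4 genes lower and 1 higher by the adjusted p alone.

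The J proteins of the ER and other membranes leaned upward, with 8 of 11 higher and 1 lower at an adjusted p below 0.05 (26.8% and 25.8% of all tested genes), a median log2 fold change of 0.36, and groups that did not overlap for any of the 11 (75.9% of all tested genes did not). With GC and length trends removed 5 were higher and 2 lower, and the median was 0.15. Calls were few, *DNAJC16* higher and *DNAJC22* lower. *DNAJC16*, a membrane-anchored J protein, had 944 and 952 counts in control and 1605 and 1579 counts in sgUSP22 libraries (log2 fold change 0.67, standard error 0.079, edgeR adjusted p = 7.34e-05). It lost its call, at 0.52, once GC and length trends were removed. *DNAJC22* had 424 and 450 counts in control and 350 and 248 counts in sgUSP22 libraries (log2 fold change -0.63, standard error 0.17, edgeR adjusted p = 0.0102). The 2 sgUSP22 libraries of *DNAJC22* were well apart, and without replicate 2 the log2 fold change was -0.41 with an edgeR adjusted p of 0.0806. *DNAJC3*, which holds back the ER stress kinase PERK, rose by 0.37 on the log2 scale (edgeR adjusted p = 0.000124), and *DNAJC10*, an ER disulfide reductase, by 0.21 (edgeR adjusted p = 0.000652), although the latter became -0.21 after the GC and length correction. *DNAJB11*, a soluble cofactor of the ER HSP70, rose by 0.13 (edgeR adjusted p = 0.0258). The ER chaperones that the symbol rule leaves out did not move as one: *HSP90B1* (GRP94) had 79048 and 73705 counts in control and 112133 and 109552 counts in sgUSP22 libraries (log2 fold change 0.46, edgeR adjusted p = 1.08e-05), *HSPA5* (BiP) had a log2 fold change of -0.06 (edgeR adjusted p = 0.0819) and *DNAJB9* of -0.26 (edgeR adjusted p = 0.00535).

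The remaining DNAJC genes serve many separate tasks, and 5 of 12 were higher and 3 lower at an adjusted p below 0.05, where 26.8% of all tested genes were higher and 25.8% lower. *DNAJC12*, which assists aromatic amino acid hydroxylases, had the largest increase of all members, with 690 and 740 counts in control and 1530 and 1772 counts in sgUSP22 libraries (log2 fold change 1.13, standard error 0.10, edgeR adjusted p = 1.10e-05). *DNAJC9*, a chaperone of histones H3 and H4, had 5340 and 5424 counts in control and 3823 and 3715 counts in sgUSP22 libraries (log2 fold change -0.59, standard error 0.043, edgeR adjusted p = 2.93e-06), just past 1.5-fold. *DNAJC5*, the cysteine string protein of secretory vesicles, rose by 0.47 on the log2 scale (edgeR adjusted p = 1.73e-05). *DNAJC6* (auxilin), which uncoats clathrin vesicles, fell by 0.54 (edgeR adjusted p = 0.000141), and *DNAJC8*, a spliceosome protein, fell by 0.23 (edgeR adjusted p = 0.000517). *DNAJC7*, a cochaperone that binds both HSP70 and HSP90, had 95% limits of -0.11 and 0.07 around a log2 fold change of -0.02.

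*HSPA12A*, *DNAJC9*, *DNAJC12* and *DNAJB12* lie on chromosome 10 beyond 40 Mb. The 431 tested genes of that stretch had a median log2 fold change of -0.41, and 29.5% of them were called lower and 4.41% higher. The falls of *HSPA12A* and *DNAJC9* thus had the direction of their neighbours' median and were larger than it, the rise of *DNAJC12* went against it, and *DNAJB12* had a log2 fold change of -0.15 (95% interval -0.33 to 0.03). Whether the stretch itself has a part in these values was not tested.

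All members together took up 1.36% and 1.32% of the counts in control and 1.08% and 1.07% in sgUSP22 libraries. Without *HSPA1A*, *HSPA1B*, *HSPA6* and *HSPA7* the shares were 1.13% and 1.11% in control and 1.05% in both sgUSP22 libraries. Most of the smaller chaperone share thus lay in the 4 inducible HSP70 genes. In the order of levels per kilobase among 62 members, *HSPA1A* went from place 3 in control to place 15 in sgUSP22 libraries, *HSPA1B* from 5 to 17 and *HSPA6* from 25 to 55, while *HSP90AB1* and *HSPD1* held places 1 and 2 in both groups.

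A list of 49 cochaperones, folding machines and regulators was read beside the members, and all 49 were tested. *BAG3* alone was called lower, or 2.04%, against 7.25% of all tested genes. *BAG3*, an inducible nucleotide exchange factor that links HSP70 to autophagy, had 4606 and 4643 counts in control and 2144 and 2077 counts in sgUSP22 libraries, 2.31-fold lower (log2 fold change -1.21, standard error 0.049, edgeR adjusted p = 8.36e-08). It too lies on chromosome 10 beyond 40 Mb, at 119651380 to 119677819. Without the fold threshold many small falls were found, with 29 lower and 9 higher at an adjusted p below 0.05, against 25.8% and 26.8% of all tested genes, and a median log2 fold change of -0.16. With GC and length trends removed 28 were lower and 5 higher. Of the 8 subunits of the CCT chaperonin, which folds actin and tubulin, 7 were lower by that rule, with log2 fold changes between -0.30 and -0.16, and *CCT2* had -0.005. The HSP90 cofactors past an adjusted p of 0.05 were mostly lower, with *CHORDC1* and *CDC37L1* as the exceptions. The HSP70-HSP90 linker *STIP1* fell by 0.31 on the log2 scale (edgeR adjusted p = 8.31e-05) and the kinase cofactor *CDC37* by 0.39 (edgeR adjusted p = 2.87e-05). Log2 fold changes were -0.44 for *PPP5C*, -0.31 for *FKBP5*, -0.19 for *FKBP4*, -0.18 for *AHSA1* and -0.12 for *PTGES3*, all past the adjusted p. *CHORDC1* rose by 0.31 (edgeR adjusted p = 0.000336) and *CDC37L1* by 0.29 (edgeR adjusted p = 0.00654). With GC and length trends removed *STIP1* and *CDC37* were at -0.22 and -0.20, and *CHORDC1* and *CDC37L1* at 0.05 and 0.07. *PPP5C*, *FKBP5*, *FKBP4* and *PTGES3* stayed lower and past the adjusted p with those trends removed, but *AHSA1*, at -0.07, did not pass it. *UNC45A*, *SUGT1* and *PPID* were not past the adjusted p in the main fit. With the trends removed *UNC45A* was at 0.16 and *SUGT1* at -0.27, both past it. The mitochondrial HSP90 *TRAP1* fell by 0.49 (edgeR adjusted p = 4.89e-06).

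*HSF1*, the main transcription factor of the heat shock response, had 7329 and 7309 counts in control and 7040 and 6846 counts in sgUSP22 libraries, a level at 89.8% of control (log2 fold change -0.15, standard error 0.038, edgeR adjusted p = 0.00688). With GC and length trends removed its log2 fold change was 0.04, so the direction of this small difference rests on the processing. *HSF2* had 2763 counts in both control libraries and 2706 and 2663 counts in sgUSP22 libraries (log2 fold change -0.12, edgeR adjusted p = 0.0796). The same correction took *HSF2* to -0.28, past the adjusted p of edgeR (0.00125). Transcript levels say nothing of the activity of these factors, which is set largely by their protein state.

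**Figure D4:**
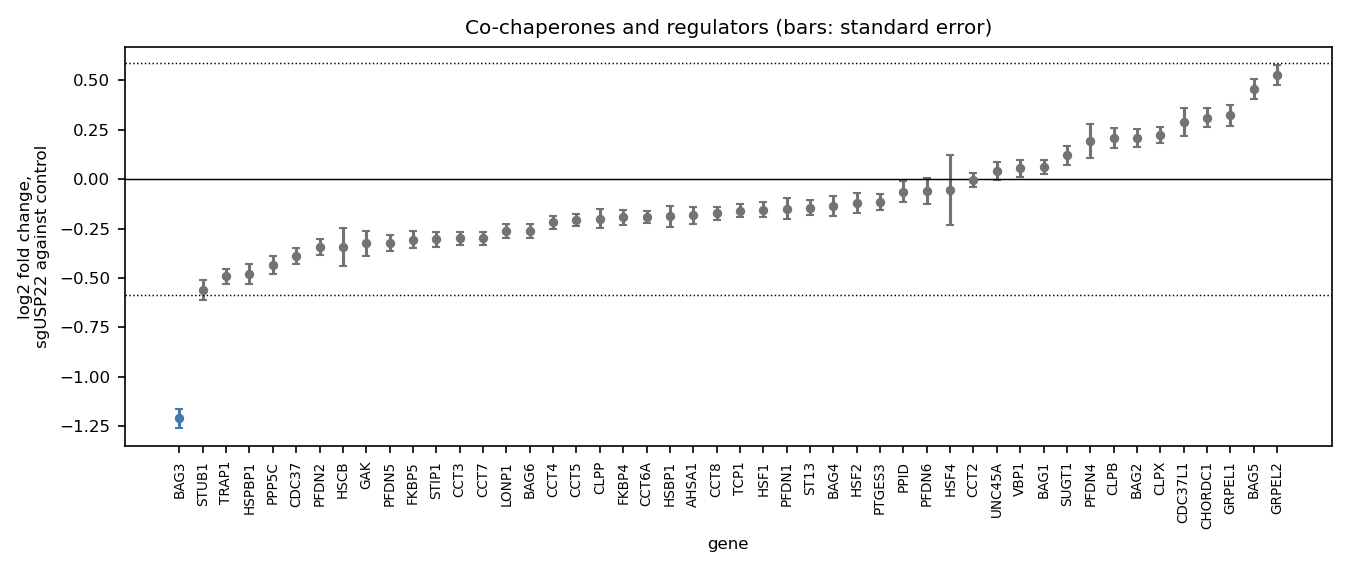
Log2 fold change (vertical axis, sgUSP22 against control) of cochaperones and regulators (horizontal axis, sorted), with bars for the standard error and dotted lines at 1.5-fold. *BAG3* (blue, called lower) lies below the lower dotted line, and the other genes shown (grey) were not called.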

How the data were processed

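PolyA RNA of 2 control and 2 sgUSP22 HepG2 populations was sequenced after 24 h of Sorafenib. The authors aligned reads to hg38 with HISAT2 2.2.1 and deposited StringTie 2.2.1 gene counts, whole numbers not divided by library size, and compared the groups with DESeq2 (1.34.0 in the submitters' processing notes). The annotation, strand setting and read length are not given in the sources used here. StringTie derives counts from coverage, so low counts and overlapping genes are uncertain. Columns were assigned by name, with 0 unassigned. Library totals were 62030307 to 64728272 counts.

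Counts were fitted in R 4.3.3 with edgeR 4.0.16 by glmQLFit and glmQLFTest, with TMM factors and genes kept by filterByExpr (count minimum 10). The standard error was taken as the size of the log2 fold change over the root of F, and intervals are 95%. Genes were called at an adjusted p below 0.05 with at least 1.5-fold, the study's thresholds. The fit was tested on simulated data first. Alternatives were DESeq2 1.42.0 (independent filtering at 0.1), scaling by RLE or by library size only, dropping the filter or setting it at a mean count of 50, a replicate block, removal of GC and transcript length trends (lowess span 0.3, known for 94.9% of tested genes), glmTreat against 1.5-fold and omission of each library in turn. Replicates differed by more than sampling noise (mean chi-square per gene 7.91 in control and 8.44 in sgUSP22 libraries).

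CPM are TMM-scaled, and CPM per kb divide by the GENCODE v44 (hg38) transcript length. *HSPB11* had no match there. Shared sequence was counted in stretches of 100 bases. Promoter windows, 250 bases before to 50 after a start, are RefSeq's (GRCh38.p14). Genes named were all called members, 14 core members, 7 regulators and cofactors with the called genes of that list, the 3 ER chaperones left out, and members at 0 in a whole group, and others named stand as examples chosen after their values were seen. The members, lists and tests were chosen with earlier results of these data known. The search for joined pairs and the 40 Mb boundary on chromosome 10 were added later. Values of 2 listed genes are not reported here.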

Additional observations from a re-analysis of the deposited data

How the results depend on the processing

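The 9 lower and 4 higher calls among the members were the same genes under DESeq2, RLE factors, a mean of at least 50 counts and the replicate block. Library size alone changed 3 calls, no filter 1, the correction for GC content and length 6 (*HSPB1*, *HSPA13* and *DNAJC16* lost, *HSPH1*, *DNAJC6* and *DNAJC30* gained), and leaving out a library 0 to 3. *HSPA1A*, *HSPA1B*, *HSPA6*, *HSPA7* and *DNAJB1* kept their direction and call under each of these. A test against 1.5-fold left 2 higher and 6 lower. The median log2 fold change of the members (-0.0125) was 0.0395 with library size alone, which moved the median of all genes to 0.0532, -0.0789 after the GC and length correction, and between -0.0348 and 0.0030 when each library was left out in turn. The cochaperone list had 1 to 2 lower calls when each library was left out, *STUB1* being the addition without sgUSP22 replicate 2. The GC and length correction turned *DNAJC10* from 0.21 to -0.21, past the adjusted p both ways, and took *HSPA4L* from 0.35 to -0.0064. It also took *HSP90AA1* to -0.1311, *HSPA4* to -0.1735, *HSF2* to -0.2819 and *HSPA5* to -0.1086, all then past the adjusted p of edgeR (0.00285, 0.00110, 0.00125 and 0.00245). Other changes of direction among the named genes were between small values: with library size alone *HSP90AA1* was 0.0305, *HSPA8* 0.0403, *HSPA4* 0.0112 and *HSPE1* 0.0322, and *HSF1* was 0.0415 after the GC and length correction. Leaving out each library in turn gave -0.0622 to 0.0192 for *HSP90AA1*, -0.0379 to 0.0138 for *HSPA8* and -0.0988 to 0.0625 for *HSPE1*, each positive only without control replicate 1. *HSPD1* kept its sign but missed the adjusted p under 5 alternatives (edgeR or DESeq2 adjusted p = 0.0623 to 0.117), as did *HSPA9* with library size alone and without sgUSP22 replicate 2, and *DNAJC22* with no filter and without sgUSP22 replicate 2. Over 33 named genes, 339 of 363 alternative values kept direction and side of the threshold, 10 were weaker, 6 stronger and 8 reversed. The cause of these shifts was not tested. Same-numbered libraries did not deviate together (correlation 0.042), so the numbers are not taken as pairs, and with the replicate block the members still had 4 higher and 9 lower calls. With 2 libraries a group, no outlying library could be looked for.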

Other observations

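Another 12 genes known to respond to heat or proteotoxic stress were looked up after the results were known, so their choice supports nothing. *CRYAB*, a small heat shock protein outside the HSPB symbols, was the 1 of 12 called, with 54 and 42 counts in control and 25 and 21 counts in sgUSP22 libraries (log2 fold change -1.14, standard error 0.42, edgeR adjusted p = 0.0459). It missed the threshold under DESeq2 (adjusted p = 0.179), and the adjusted p ran from 0.0545 to 0.256 over fits with DESeq2, library size alone, the GC and length correction, the replicate block and each library left out. Below 1.5-fold, 9 more were lower at an adjusted p below 0.05, a rule that 25.8% of all tested genes passed, and with GC and length trends removed 5 of the 12 were lower by it. The polyubiquitin gene *UBB*, 1 of the 9, had a log2 fold change of -0.21. *ZFAND2A*, a zinc finger gene raised by arsenite and heat, had 1138 and 1262 counts in control and 884 and 1026 counts in sgUSP22 libraries (log2 fold change -0.41). *SERPINH1* (HSP47), the collagen chaperone of the ER and a known heat shock gene, had a log2 fold change of -0.13, which became 0.03 after removing GC and length trends. *HMOX1* had 1260 and 1312 counts in control and 1183 and 1104 counts in sgUSP22 libraries (log2 fold change -0.25). The falls of these genes were thus much smaller than those of *HSPA1A*, *HSPA1B* and *HSPA6*. *ATF3* and *JMJD6* were not past the threshold, with log2 fold changes of -0.10 each.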
